A study of Paxillus involutus with 12 samples.

Results

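In carbon-starved mycelium of the ectomycorrhizal fungus Paxillus involutus, 204 of the 12214 array sequences (1.67%) had a level that was lower at each successive harvest, from day 2 through days 6 and 8 to day 13. A sequence was a member if the mean of its 3 log2 values dropped by at least 0.3, which is 1.23-fold, at each of the 3 steps between harvests. The choice thus rests on the measured day means of all 12 arrays, and the falls of the members between days are a description that no test supports. Across the whole span the median member fell 3.98-fold, and the deepest fell 55.3-fold.

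The fungus (strain ATCC 200175) was grown without a plant partner on glass beads in Petri dishes. The minimal medium held ammonium and had a C/N ratio of 3, and the cultures had been through 10 days of pre-culture and 24 h without nitrogen. RNA was harvested at days 2, 6, 8 and 13 of the incubation, and each of the 3 replicates per day was a separate pool of 2 cultures. All 12 samples shared this medium, this strain and the spell without nitrogen. No sample used here was kept supplied with carbon to the same age, so starvation and culture age cannot be told apart.

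Ectomycorrhizal fungi live on sugars passed to them by tree roots and explore the soil with a mycelium that the tree pays for. A mycelium cut off from carbon draws on its stores and dismantles parts of itself, among other routes by autophagy, in which cell contents are enclosed in membranes and broken down in the vacuole. In baker's yeast, the transcripts of ribosome production and growth are known to decline under starvation. The sequences on this array carry numbers only, and the column for gene information was empty. The reference table lists 18033 genes of this fungus and holds 0 of the 12214 numbers, so no role can be given to any member, and the identity of the mycelium could not be checked against marker genes.

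The arrays were evenly scaled, with medians between 11.35 and 11.38 on the log2 scale and a random-sequence control, the measure of background, between 4.49 and 4.70. Correlations across sequences between arrays of 1 day were 0.989 to 0.998. For days 6 and 8 the sample descriptions contradict themselves on position: the 3 samples with day 6 in the title carry subarray numbers 7 to 9 but array numbers 4 to 6, and the 3 with day 8 carry the reverse. The titles were followed. The falling course depends on this order. With days 6 and 8 exchanged, the same rule finds 5 other sequences. None of the 204 can be among them, since each falls by at least 0.3 from day 6 to day 8. Those 5, named after their values were seen, are paxillus_12297, paxillus_12382, paxillus_1572, paxillus_7918 and paxillus_8424. The 3 arrays of each day carry consecutive position numbers, so position and day cannot be told apart either.

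The signal of the members began slightly above the middle of the array and ended in its lower part. At days 2, 6, 8 and 13 their median log2 value was 11.69, 10.92, 10.39 and 9.47, while the median over all sequences was 11.36 to 11.37 on every day. In ranks, the median member stood at percentiles 58.1, 39.8, 29.2 and 16.8 of all sequences on these days. The signal of a sequence also depends on its probes, so a rank on the array is not a rank of transcript abundance. At day 2, 65 members were above percentile 75 and 25 below percentile 25. At day 13, 2 members were left above percentile 75 and 132 were below percentile 25. Dim as many became, only paxillus_13188 came within 2-fold of the control on any array. Its day 13 values are therefore near background. The control is not a detection limit, since values on the arrays go down to 2.81, and detection was not tested.

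**Figure D1:**
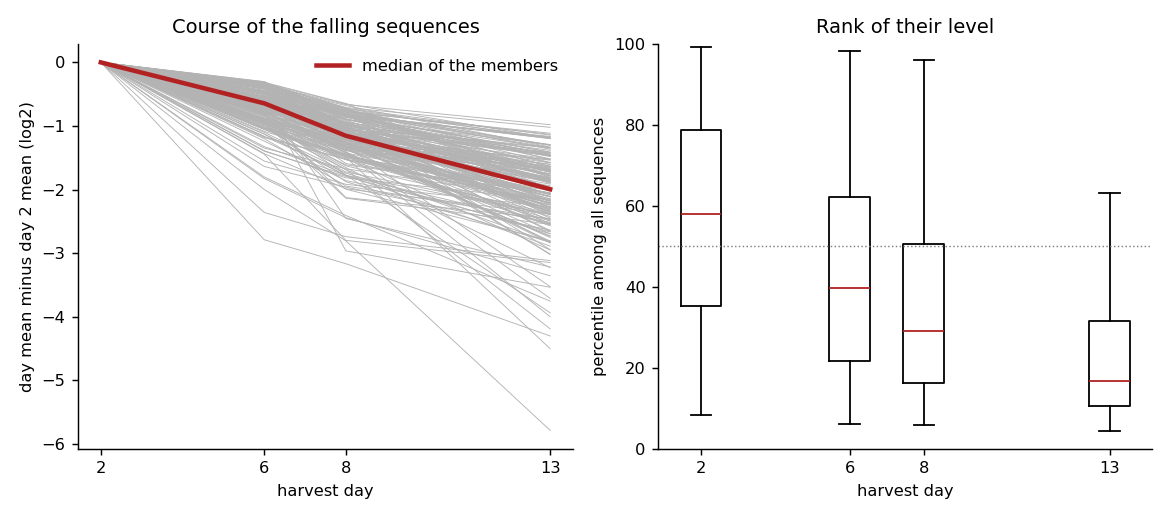
Left, day mean minus day 2 mean on the log2 scale for each of the 204 sequences (grey) against harvest day, with their median in red, which reaches -1.99 at day 13. Right, percentile of each sequence's level among all 12214 on each day. Boxes span the quartiles with the median in red, whiskers reach the last value within 1.5 box lengths, and the dotted line marks percentile 50. The median falls to 16.8 at day 13, against 58.1 at day 2.

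The whole fall, day 13 against day 2, had a median of 1.99 on the log2 scale, with quartiles of 1.64 and 2.39, against a median of -0.03 over all sequences. It was at least 2-fold in 203 members, at least 4-fold in 100 and at least 8-fold in 17. The exception under 2-fold was paxillus_12236, whose mean was 8.62 ± 0.30 at day 13 and 9.60 ± 0.22 at day 2 (SD, n = 3 each), a 1.97-fold difference. The deepest losses on the array were in part members. Of the 193 sequences at least 4-fold lower at day 13 than at day 2, 100 were members, as were 17 of the 24 that were at least 8-fold lower. Among the 50 largest falls on the array 34 were members. The rule uses the same day means and requires a total fall of at least 0.9, so these shares are partly fixed by the choice. Of the other 93 sequences with a 4-fold loss, 71 missed the threshold of 0.3 between days 6 and 8, the shortest interval, 21 between days 2 and 6, and 10 between days 8 and 13.

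The 3 steps differed in size and in length. The first step, day 6 against day 2, spanned 4 days and had a median fall of 0.64 on the log2 scale, the second spanned 2 days with 0.45, and the third, day 13 against day 8, spanned 5 days with 0.75. Over all sequences these medians were 0.00, 0.00 and 0.01. The third step was the largest in 105 members, the first in 82 and the second in 17. Per day of culture the order was another. The median fall per day was 0.16 in the first step, 0.22 in the second and 0.15 in the third, and the second step was the fastest in 130 members, the first in 44 and the third in 30. The rule favours this, since a fall of at least 0.3 in the short middle step is a faster one than in the others. A median member lost 35.2% of its log2 fall in the first step, 24.2% in the second and 38.6% in the third. In 35 members the largest step was less than 1.5 times the smallest, and in 44 it was more than 3 times the smallest.

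**Figure D2:**
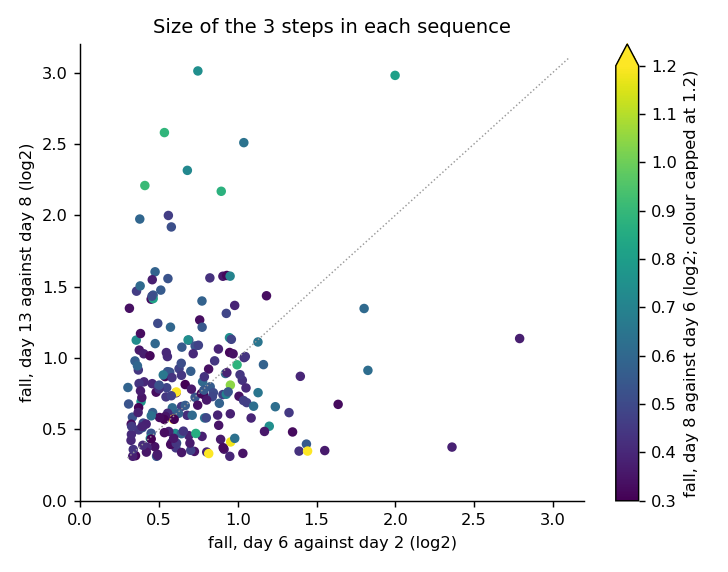
Each of the 204 sequences by its fall in log2 from day 2 to day 6 (horizontal) and from day 8 to day 13 (vertical), with the fall from day 6 to day 8 as colour. Most points lie below 1 on both axes. The dotted line marks equal first and last steps, and paxillus_383, paxillus_9783, paxillus_7775 and paxillus_984 lie highest, with last steps between 2.51 and 3.01.

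Of the 10 members with the deepest losses, 7 had their largest step at the end, 2 at the start and 1 in the middle. paxillus_9783 read 13.00, 12.78 and 12.91 on the day 2 arrays, 11.30, 10.51 and 10.88 at day 6, 10.70, 10.24 and 9.33 at day 8, and 6.94, 7.48 and 6.90 at day 13. Days 6 and 8 overlapped, while days 2 and 13 each stood apart from all other days. It was the only member among the 4 largest falls of both the first step, at 4.00-fold, and the last, at 7.89-fold, with a difference of -0.81 ± 0.29 (SE, from a linear model fitted with limma to all sequences) between days 8 and 6.

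paxillus_383 read 14.00, 13.90 and 14.12 at day 2, 13.38, 13.01 and 13.39 at day 6, 12.60, 12.60 and 12.34 at day 8, and 10.00, 9.32 and 9.19 at day 13. No 2 days overlapped. Its first and second steps were alike, 1.68-fold each, and the last was 8.06-fold. paxillus_984 also fell most in the last step, with 13.80, 14.22 and 14.30 at day 2, 13.43, 12.82 and 12.96 at day 6, 12.61, 12.19 and 12.47 at day 8, and 10.01, 9.95 and 9.79 at day 13. Its days were also separate, and its last step was 5.69-fold in a loss of 18.3-fold in all.

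paxillus_7775 read 13.23, 13.26 and 13.45 at day 2, 12.95, 12.64 and 12.74 at day 6, 11.96, 11.92 and 11.79 at day 8, and 9.76, 9.41 and 8.76 at day 13. All 4 days were separate, and each step was larger than the one before, at 1.45-fold, 1.85-fold and 5.98-fold. paxillus_5906 also steepened, through 12.29 ± 0.09, 11.88 ± 0.36, 10.97 ± 0.06 and 8.76 ± 0.36 (SD, n = 3) at days 2, 6, 8 and 13. One of its day 6 arrays, at 12.23, lay within the range of the day 2 arrays, 12.19 to 12.37, so its first step is the uncertain one. paxillus_10537 had its largest step first, with 12.51 ± 0.07, 10.71 ± 0.53, 10.11 ± 0.68 and 8.76 ± 0.16, and its arrays at days 6 and 8 spread widely and overlapped.

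The fall of paxillus_13188 rests on thin data, and its rank among the largest is not settled. It is the only member with fewer than 10 probe pairs, having 2, against 10 in the other 203. It read 10.31, 9.38 and 8.52 at day 2, 6.75, 6.48 and 6.61 at day 6, 6.20, 6.07 and 6.45 at day 8, and 3.86, 5.21 and 6.23 at day 13. The day 2 values stood clear of the rest, whereas those of day 13 spread over more than 2 log2 units and overlapped those of day 8. The lowest, 3.86, lay below the control on its array, 4.57, and with that value raised to the control the whole loss was at least 16.7-fold. The loss by day 6 is thus clear in these arrays, and the later steps, -0.38 ± 0.50 and -1.14 ± 0.50 (SE), were not called by limma.

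**Figure D3:**
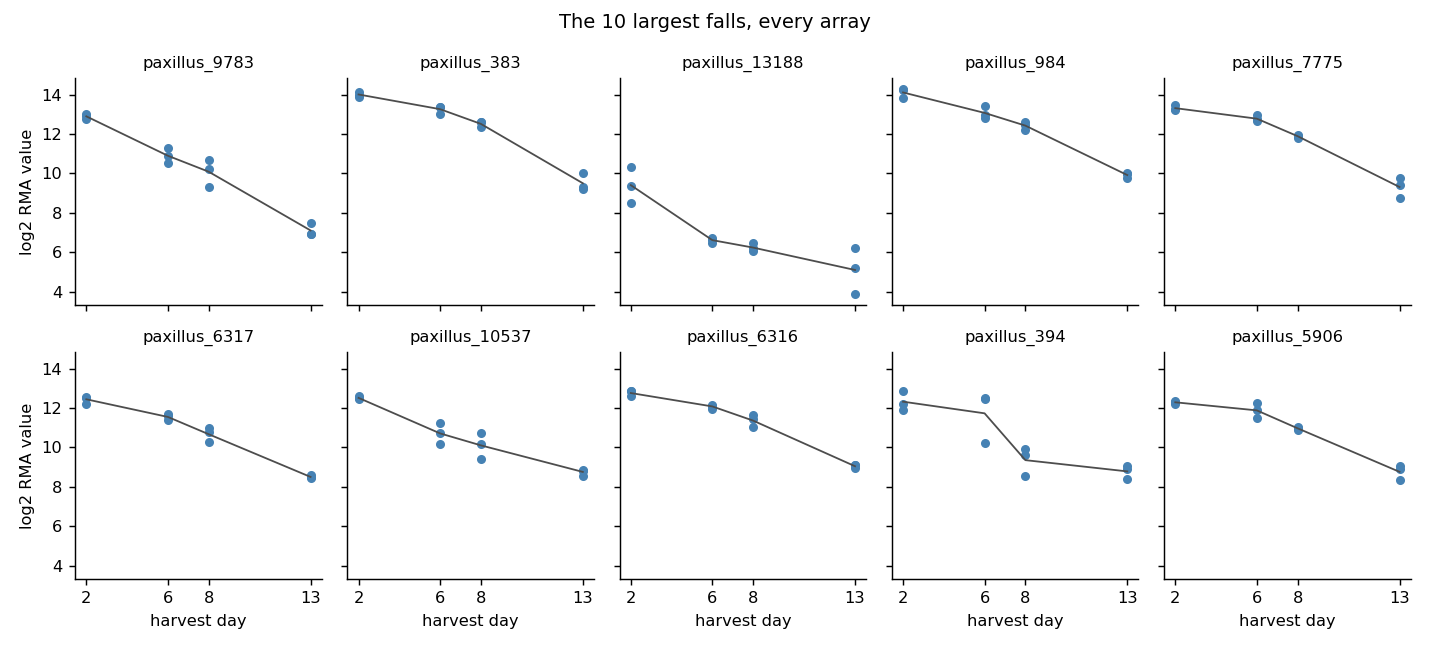
Log2 RMA value against harvest day on each of the 12 arrays (points) for the 10 sequences with the largest falls, with a line through the day means of 3 arrays. In paxillus_383, paxillus_984, paxillus_7775, paxillus_6316 and paxillus_6317 the 4 days are separate. paxillus_394 has 1 low day 6 array, and paxillus_13188 scatters at days 2 and 13.

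Some members lost most of their level before day 6. The first step was larger than the other two together in 20 members and was at least 2-fold in 32. paxillus_11725 is the plainest case, with 11.70, 11.74 and 11.70 at day 2, 9.47, 9.17 and 9.41 at day 6, 9.11, 9.03 and 8.78 at day 8, and 8.32, 8.72 and 8.75 at day 13. The drop to day 6 was 5.13-fold, while the later steps were 1.30-fold each and the arrays of each day still lay below those of the day before. paxillus_1493 fell 3.55-fold in the first step, to 8.96 ± 0.10 at day 6, against 10.79 ± 0.20 at day 2 (SD, n = 3 each), and went on to 8.35 ± 0.20 at day 8 and 7.43 ± 0.36 at day 13.

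The middle step was at least 2-fold in 6 members, among them 3 in which it was larger than the other two together: paxillus_394, paxillus_3566 and paxillus_9408. In paxillus_9408 it was 2.48-fold, and the arrays read 11.64, 11.48 and 11.28 at day 6 and 10.52, 10.10 and 9.85 at day 8, with no overlap. paxillus_8201 fell 2.72-fold and then 2.56-fold to 8.89 ± 0.13 (SD, n = 3) at day 8, and was only 1.27-fold lower at day 13, at 8.54 ± 0.13. The remaining 2 were paxillus_12693 and paxillus_280, the first of them named after its values were seen.

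The course of paxillus_394 and paxillus_3566 depends on 1 day 6 array. paxillus_394 read 12.46, 12.52 and 10.21 at day 6 and 9.91, 9.62 and 8.54 at day 8. paxillus_3566 read 12.78, 12.81 and 10.71 at day 6 and 10.58, 10.38 and 9.81 at day 8. In both, the third day 6 array lay near the highest day 8 array, and the other 2 lay within the range of the day 2 arrays. Their first step, and with it their membership, rests on that array. Without it the day 6 mean was 12.49 in paxillus_394 and 12.80 in paxillus_3566, above the day 2 means of 12.32 and 12.71, and with all arrays limma did not call the step (adjusted p = 0.393 and 0.298). These 2 members are the only ones in which that array lay at least 1 log2 unit below both others of its day. Their 12 values ran in parallel, with r = 0.991, and so did the deviations from the day means, with r = 0.962 (12 arrays, a description chosen after the values were seen). Their numbers are far apart, and whether they stem from the same gene cannot be told from the files.

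Of all members, paxillus_1223 had the largest smallest step. It read 13.96, 14.01 and 13.97 at day 2, 12.85, 12.89 and 13.21 at day 6, 12.59, 12.12 and 11.60 at day 8, and 11.08, 11.36 and 11.02 at day 13. Its steps were 1.99-fold, 1.84-fold and 1.94-fold, with no overlap between days. paxillus_280 was also among the 4 members with the largest smallest step, with steps of 1.94-fold, 2.06-fold and 1.75-fold and means of 13.35 ± 0.12, 12.40 ± 0.04, 11.35 ± 0.38 and 10.54 ± 0.09 (SD, n = 3) at days 2, 6, 8 and 13. In 50 members every step was at least 0.5 on the log2 scale. The largest smallest step of any member was 0.88, so no sequence on the array fell 2-fold at every step.

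The members with the strongest signal at day 13 had smaller or median-sized falls. paxillus_2897, the brightest member on every day, read 14.51, 14.38 and 14.61 at day 2, 14.18, 14.23 and 14.09 at day 6, 13.89, 13.79 and 13.70 at day 8, and 13.52, 13.38 and 13.54 at day 13. Its days did not overlap although the whole fall was only 2.03-fold. paxillus_4090 fell 2.79-fold, to 12.72 ± 0.10 at day 13, against 14.20 ± 0.05 at day 2 (SD, n = 3 each), and with paxillus_2897 it makes up the 2 members still above percentile 75 at day 13. paxillus_228 fell 4.02-fold, to 12.41 ± 0.07 at day 13, against 14.42 ± 0.11 at day 2.

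At the lower end, paxillus_13643 averaged 8.24 ± 0.41, 6.69 ± 0.16, 6.33 ± 0.11 and 5.97 ± 0.35 (SD, n = 3) at days 2, 6, 8 and 13. Its first step, 2.93-fold, was the only one called by limma. paxillus_10419 was dim throughout and fell most in the last step, with 8.08 ± 0.09, 7.71 ± 0.13, 7.35 ± 0.09 and 6.30 ± 0.08. Its arrays of successive days did not overlap, and limma called all 3 steps.

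Some members carry consecutive numbers, and their values were compared. Every member falls at each step by the rule, so a high correlation over the 12 arrays is partly fixed by the choice. There were 9 such runs with 20 members. In 6 of their 11 neighbouring pairs, the values were alike enough (r of at least 0.95 over the 12 arrays and mean levels within 0.5) to be taken as possible repeats of a sequence. The longest run was paxillus_292, paxillus_293, paxillus_294 and paxillus_295, with falls of 2.28, 2.27, 2.35 and 2.18 on the log2 scale and correlations of 0.998, 0.997 and 0.998 between neighbours. On no array did paxillus_292 and paxillus_293 differ by more than 0.15. paxillus_3736 and paxillus_3737 (falls of 2.84 and 2.82, r = 0.998) and paxillus_5062 and paxillus_5063 (1.71 and 1.72, r = 0.993) were joined by the same limits.

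paxillus_5748 and paxillus_5749 shared even their irregularity. At day 6 the arrays of paxillus_5748 read 10.93, 11.70 and 10.78 and those of paxillus_5749 read 10.69, 11.59 and 10.66, so that replicate 2 was high in both. paxillus_6316 and paxillus_6317, both among the 10 largest falls, ran in parallel as well (r = 0.996), with falls of 3.71 and 3.94 and a level that differed by 0.53 on the median array. Further such neighbours at unequal level were paxillus_126 and paxillus_127, paxillus_5717 and paxillus_5718, paxillus_6054 and paxillus_6055, and paxillus_6471 and paxillus_6472, with correlations between 0.964 and 0.993. With all runs on the array averaged, 197 members were counted in place of 204. By blocks of 1000 numbers, the share of members ran from 0.668% (6 of the 898 sequences numbered 1001 to 2000) to 3.31% (28 of the 846 numbered up to 1000, possible repeats included), with the other 12 blocks between 1.02% and 2.5%. Evenness over the numbers was not tested. What the numbering follows is not given in the sources used here.

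A fit of all 12214 sequences gives the precision behind these steps, although it uses the contrasts that chose the members and so adds no evidence. In limma, with Benjamini-Hochberg adjustment and a threshold of 0.05, 187 of the 204 members were called lower at day 6 than at day 2 (23.1% of all sequences were), 162 at day 8 than at day 6 (11.6% of all) and 194 at day 13 than at day 8 (28.3% of all). All 204 were called lower at day 13 than at day 2 (31.4% of all). At all 3 steps, 149 members were called, where 1.68% of all sequences were. The calls of the middle step depended most on the fit. They dropped to 91 without day 6 replicate 1 and to 83 without day 8 replicate 3, and those at all 3 steps to 82 and 78. Over all sequences the calls dropped too, from 1417 to 794 and 676 in the middle step. At all 3 steps they went from 205 to 96 and 99. With array weights, 199 members were called in the middle step, and 196 in a fit of only the 6 arrays of that step, against 183 and 187 for the first and last steps in such fits. Over all sequences the calls of the middle step rose as well, from 1417 to 2730 with array weights and to 2553 in the fit of 6 arrays. For the first and last steps such fits called 2662 and 3287 of all sequences. The median standard error of a step was 0.12 on the log2 scale.

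Counted on the arrays themselves, in 185 members all 3 day 6 arrays lay below all 3 day 2 arrays (28% of all sequences), in 190 the day 8 arrays below those of day 6 (26.4% of all), and in 185 the day 13 arrays below those of day 8 (32.2% of all). In 157 members no 2 successive days overlapped (3.46% of all). For day 13 against day 2 this held for all 204 (31% of all). Here too the rule used the same values.

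Sequences chosen from part of the arrays also declined in the arrays left out of their choice. The rule was applied again to the arrays of 2 replicate numbers, and the sequences it found were read in the arrays of the third number. Of 175 sequences chosen without replicate 1, 174 were lower at each successive day in the replicate 1 arrays (99.4%), where 13.7% of all sequences were. Of 247 chosen without replicate 2 the number was 218 (88.3%, against 10.5% of all), and of 179 chosen without replicate 3 it was 163 (91.1%, against 12.3% of all). The full 0.3 at every step was met in the unused arrays by 109, 91 and 104 of them (62.3%, 36.8% and 58.1%), against 1.83%, 1.06% and 1.83% of all sequences. Whether a replicate number links cultures of different days is not settled, so these courses join single arrays that may come from unrelated pools.

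The unused arrays gave falls of about the size seen in the arrays that chose the sequences. In the first step the median fall was 0.67, 0.74 and 0.73 in the arrays of replicates 1, 2 and 3, against 0.68, 0.65 and 0.67 in the choosing arrays. In the middle step it was 0.42, 0.37 and 0.50, against 0.45, 0.46 and 0.44. In the last step the replicates differed most, with 0.96, 0.73 and 0.60, against 0.68, 0.71 and 0.72.

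**Figure D4:**
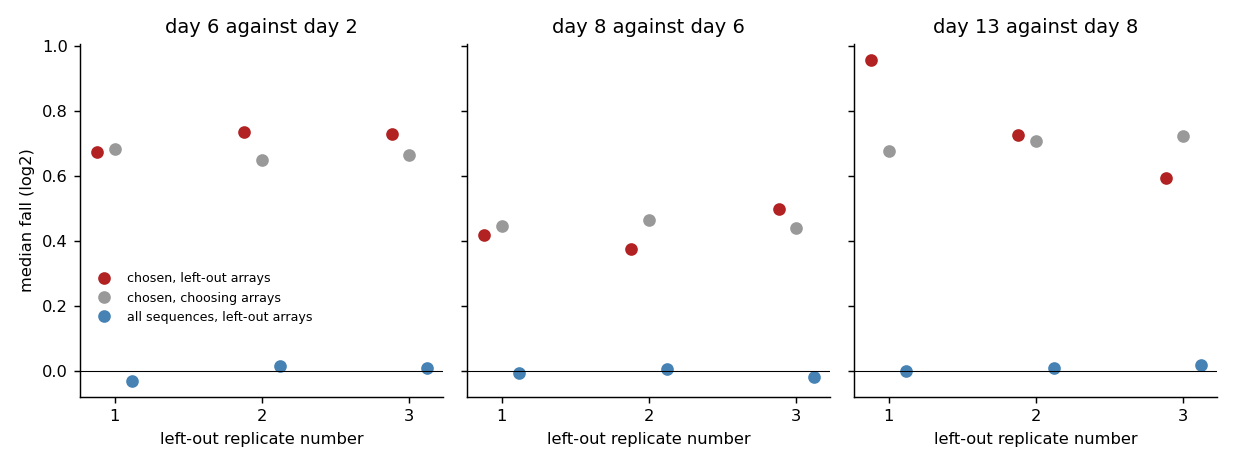
Median fall in log2 at each step for sequences chosen from the arrays of 2 replicate numbers, read in the arrays of the left-out number (red) and in the choosing arrays (grey), with the median of all 12214 sequences in the left-out arrays (blue). The red points lie between 0.37 and 0.96 and the blue ones between -0.03 and 0.02.

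Within a day, the members deviated together from array to array. Each culture pool was read on 1 array, so pool and array cannot be told apart. On the day 8 replicate 3 array 183 of the 204 members lay below their own day mean, with a median deviation of -0.13 on the log2 scale, while 45% of all sequences did. On the day 8 replicate 1 array 162 members lay above their day mean, as did 167 on the day 6 replicate 1 array and 154 on the day 13 replicate 2 array, against 48.4%, 46.4% and 56% of all sequences. An array that pulls a day mean down can help a sequence past the rule, so these counts are not free of the choice. Of the 179 sequences chosen without any replicate 3 array, 147 were lower on the day 8 replicate 3 array than the mean of the other two day 8 arrays, by a median of -0.17, where 45% of all sequences were.

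The 95 sequences that rose by at least 0.3 at every step, the counterpart of the members, deviated the opposite way on that array: 92 of the 95 lay above their day mean on day 8 replicate 3, with a median of 0.13. On day 6 replicate 1, 86 of the 95 lay below. Without day 8 replicate 3 the rule gave 184 members, 162 of them among the 204. The members' median level on the day 8 arrays was 10.56, 10.38 and 10.20 in replicates 1, 2 and 3.

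**Figure D5:**
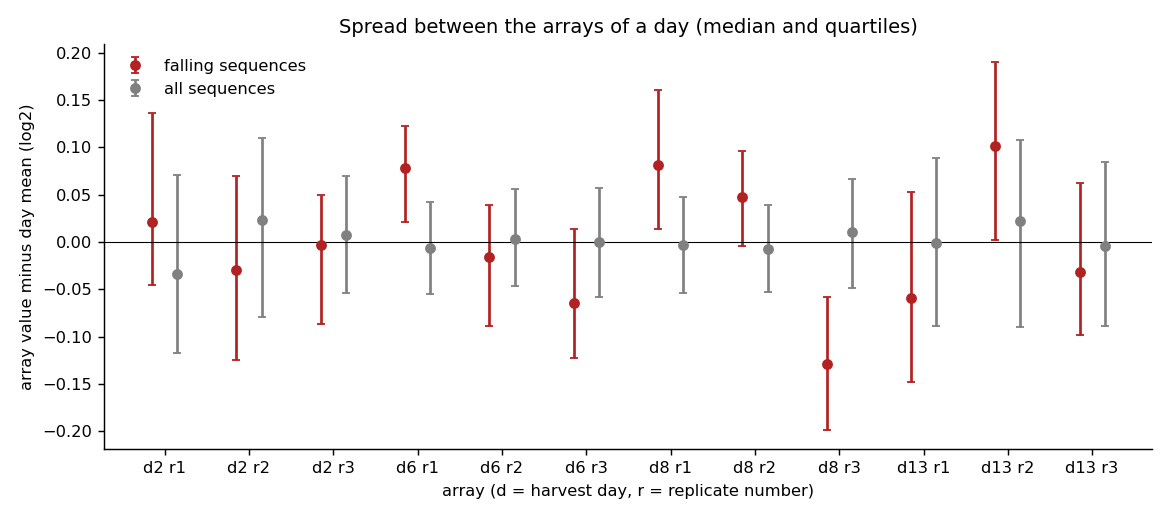
Array value minus the mean of its day, on the log2 scale, for each of the 12 arrays: median (point) and quartiles (bars) over the 204 falling sequences (red) and over all 12214 (grey). The falling sequences lie lowest on day 8 replicate 3, with a median of -0.13, where the median of all sequences is 0.01.

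The spread between the arrays of a day was larger in the members than in all sequences at days 6 and 8. At days 2, 6, 8 and 13 the median SD of a member was 0.125, 0.114, 0.137 and 0.158, while over all sequences it was 0.129, 0.0790, 0.0771 and 0.139. Sequences in the same range of levels, between the members' quartiles of the day, had median SDs of 0.128, 0.0796, 0.0808 and 0.174, so that at day 13 the median SD of the members was the smaller one. At days 2, 6, 8 and 13 the SD exceeded the median of all sequences in 98, 162, 163 and 127 members. The 95 rising sequences also spread more than all sequences at days 6 and 8, with median SDs of 0.117 and 0.120. At days 2 and 13 theirs were 0.172 and 0.122, above and below the value of all sequences.

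Steady decline was more common than steady rise at the threshold used. The same rule turned round gave 95 rising sequences, and without a minimum size 1551 sequences had day means in falling order and 1453 in rising order. The rising sequences changed by a median of 1.79 on the log2 scale over the whole span, with a maximum of 3.92, where the members had 1.99 and 5.79. Their median percentile was 76.1 at day 13, against 32.6 at day 2. Their 3 steps had medians of 0.48, 0.49 and 0.65, and the middle step was the largest in 29 of the 95, against 17 of the 204 members. RMA sets all arrays to a common distribution, so falls and rises are relative to the other sequences, and a change in total messenger RNA is not visible.

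Values at the edge of the rule were continuous. The members with the smallest qualifying steps were paxillus_9040 (11.69, 11.24, 10.94 and 10.51 at days 2, 6, 8 and 13), paxillus_10947 (9.29, 8.99, 8.41 and 7.61) and paxillus_11546 (10.54, 9.87, 9.57 and 8.76), each with a smallest step of 0.30. Just outside lay paxillus_8950 (12.73, 12.32, 12.02 and 11.34), paxillus_4573 (12.91, 12.26, 11.96 and 11.40) and paxillus_147 (13.17, 12.87, 12.49 and 11.71), whose smallest steps were 0.299, 0.299 and 0.298. In 53 members the smallest step was under 0.35, and 86 further sequences had one between 0.25 and 0.3.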

How the data were processed

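Total RNA of 12 samples was hybridised to the subarrays of a 1-colour (Cy3) NimbleGen chip. Per the submitters' processing notes and the file headers, the authors deposited values from RMA, which corrects background, equalises the arrays and combines each sequence's probes. No RMA version is given in the sources used here. That the scale is log2 follows from the range of 2.81 to 15.6. The deposited files also give the number of probe pairs per sequence, used as it stands. The series-wide table held the same values, with a largest difference of 0. Days and replicate numbers come from the sample titles.

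Day means were taken over 3 arrays, and members chosen by the rule stated at the start of the report. The members and the lists were chosen with earlier results of these data known. limma 3.58.1 in R 4.3.3 was fitted to all 12214 sequences with a mean per day and no replicate block (8 residual and 4.23 prior degrees of freedom, adjusted p under 0.05), and was tested on simulated data. The number of arrays limits the precision. Named members are the largest falls in all and per step, those with the largest smallest step, the brightest and dimmest, those nearest the threshold, those with few probe pairs and those with consecutive numbers. No filter on dim sequences was applied, and the control was left out. Alternatives were other thresholds, scalings, fits and left-out arrays.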

Additional observations from a re-analysis of the deposited data

How the results depend on the processing

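The number of members followed the threshold, by construction: 388 at 0.2, 103 at 0.4 and 50 at 0.5. With days 6 and 8 exchanged it was 5, and by construction none of these was among the 204. Median centring left 204 members (202 shared), quantile normalization 201 (193 shared), day medians in place of means 196 (167 shared), and the removal of sequences near the control 203. Leaving out arrays gave 175 to 247 members. At a threshold of 0.01, 79 members were called at day 8 against day 6 and 67 at all 3 steps, which is stricter by construction. Over all sequences, 589 and 69 were called. With 1 array left out, the calls were 169 to 189 at day 6 against day 2, 83 to 173 at day 8 against day 6, 177 to 195 at day 13 against day 8 and 78 to 160 at all 3 steps, and the median change from day 2 to day 13 was -2.04 to -1.97. Over all sequences the calls were, in the same order, 2316 to 2938, 676 to 1628, 2968 to 3614 and 96 to 230. The cause of the low counts without day 6 replicate 1 or day 8 replicate 3 was not tested. Array weights gave 193 members at all 3 steps, where 400 of all sequences were called. In all, 36 of 42 values under other settings and 71 of 75 with arrays left out stayed within 1.5 times the original count, or, for the median change, within the spread between arrays. With the replicate number as a block, 152 members were called at all 3 steps, against 149 without it (208 and 205 over all sequences). The deviations of same-numbered arrays correlated above 0.1 in 5 of 18 pairs, from -0.30 to 0.63, and 5 of 12 arrays correlated best with their own number. With only 3 numbers, these correlations cannot settle whether a number links arrays of different days.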
